A study of Danio rerio with 6 samples.

Results

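In sorted nuclei of zebrafish embryos, 165 regions of open chromatin were called in every library and ranked clearly higher in the endothelial fraction than in the rest of the embryo. They were drawn from 17714 regions of over 300 bp and under 1000 bp that held a peak in all 6 libraries, out of 20275 regions called in all 6 and 187225 regions called in any. These 17714 are called shared regions below. The embryos carried Tg(fli1a:egfp), in which regulatory sequence of fli1a drives enhanced GFP, and were collected at 24 hours post fertilization. Nuclei from deyolked embryos were sorted into a GFPplus fraction, labelled as endothelial, and a GFPminus fraction, labelled as non-endothelial, with 3 libraries of each and 20000 nuclei per library. The series' design text describes the 3 libraries of a fraction as biological replicates from separate isolations. Both fractions come from the same transgenic strain, and the labels name no treatment. ATAC-seq, the assay used, marks accessible DNA by the insertion of sequencing adapters with a transposase.

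Each region was placed by its fold enrichment, the height of its highest peak over the background that the authors' peak caller used for that peak. The fold was turned into a percentile among all peaks of the same library, and a region was kept when its lowest GFPplus percentile exceeded its highest GFPminus percentile by at least 10 points. This distance is called the gap below. The choice therefore used the fold in all 6 libraries, so the percentiles, folds, peak p-values and peak widths of these regions are given as a description and no test was run on them. The same rule with the fractions exchanged gave a set of 499 regions more open in GFPminus, used here for comparison.

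Endothelial cells line blood and lymphatic vessels, and at this stage of zebrafish development blood circulation is just beginning. Their genes are controlled by distal enhancers and promoters that recruit ETS factors such as Fli1 and Etv2, often together with GATA, SOX and forkhead factors. A site that is open in many cell types can still be used more in some of them, so a region shared by both fractions need not be an element with equal activity in each. The fli1a transgene is best known as an endothelial reporter, and it also labels cranial neural crest derivatives of the pharyngeal arches. In sorted nuclei measured in bulk, a site open in fewer nuclei and a site with fewer insertions per nucleus cannot be told apart. The build of the files is Zv9, for which no genome sequence or gene annotation was used here, so regions are named by position. Nearby genes, exons and sequence motifs were not analysed here, and the labelled cell types were not checked against marker genes.

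The 165 regions made up 0.931% of the 17714 shared regions, while the opposite set made up 2.82%. Without the 10-point margin, 754 shared regions (4.26%) had all GFPplus percentiles above all GFPminus percentiles, and 1747 (9.86%) had the reverse order. The lists held 72695, 73716 and 50396 peaks in GFPplus replicates 1 to 3 and 113476, 110663 and 33437 in GFPminus replicates 1 to 3. The longest lists placed shared regions highest: the median shared region stood at the 88.7 and 88.6 percentile in GFPminus replicates 1 and 2, at 81.4, 82.5 and 73.7 in GFPplus replicates 1 to 3, and at 65.4 in GFPminus replicate 3. When percentiles were taken among the 17714 shared regions alone, 695 regions (3.92%) passed in favour of GFPplus and 967 (5.46%) in favour of GFPminus. The ratio of the sets was thus nearer to even. Of the 165 regions, 124 (75.2%) also passed in that ranking, and they made up 17.8% of the 695. In it, 151 of the 165 had no overlap between the fractions, against 11% of all shared regions. Both rankings order the same folds of the same 6 libraries, so this is no separate support for the choice. By −log10 p in place of the fold, 173 regions passed (0.977%), 135 of them among the 165.

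The 165 regions ranked high in the GFPplus lists, near the middle of the lists of GFPminus replicates 1 and 2 and lower in that of GFPminus replicate 3. Their median percentile was 87.0, 84.9 and 85.5 in GFPplus replicates 1 to 3, with lowest values of 39.1, 31.4 and 31.6 and highest values of 99.5, 98.1 and 99.6. In GFPminus replicates 1 to 3 the medians were 56.6, 58.4 and 33.3, with lowest values of 2.37, 5.02 and 0.12 and highest values of 85.6, 85.4 and 84.1. Single regions of the set therefore overlapped in level with single regions in the other fraction, although within each region the fractions stood apart by the rule. Ranked among shared regions alone, their medians were 62.9, 54.99 and 69.7 in GFPplus and 6.75, 8.01 and 18.9 in GFPminus, so their GFPplus level was moderately above the middle of shared regions and their GFPminus level was near the bottom.

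**Figure D1:**
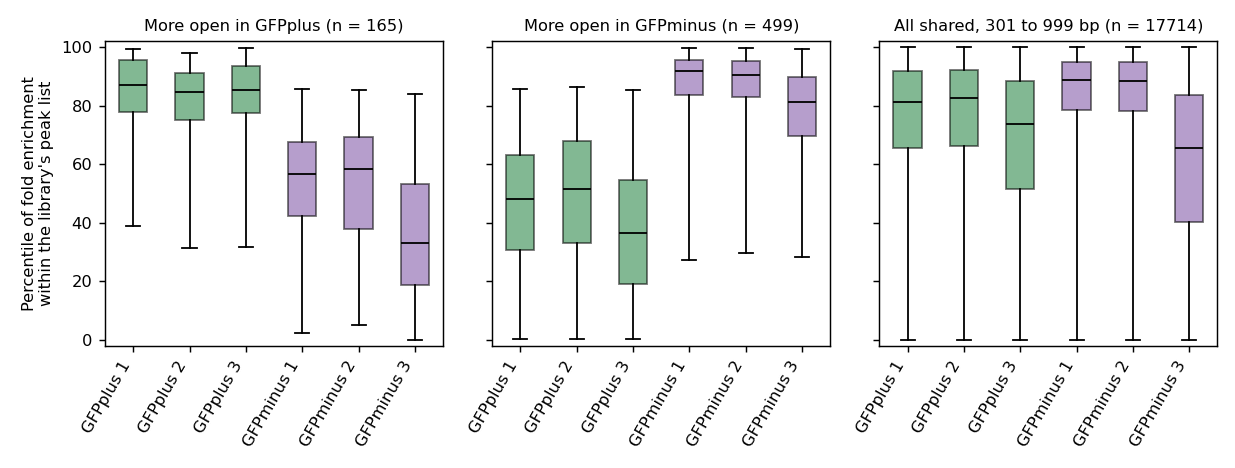
Percentile of fold enrichment within each library's peak list, for the 165 regions more open in GFPplus, the 499 regions more open in GFPminus and all 17714 shared regions. Boxes span the quartiles, the line is the median and whiskers reach the lowest and highest region. The 165 regions have medians of 84.9 to 87.0 in the GFPplus libraries and 33.3 to 58.4 in the GFPminus libraries, while among all shared regions the GFPminus replicates 1 and 2 have the highest medians.

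The fold enrichment behind these ranks had a median of 8.48, 7.08 and 8.57 in GFPplus replicates 1 to 3 and of 4.51, 4.56 and 4.77 in GFPminus replicates 1 to 3. For 161 of the 165 regions the folds of the fractions did not overlap. The choice used ranks of these same folds, so this count is no separate support. The share over all shared regions was not computed. The median −log10 p of the peaks was 25.2, 16.6 and 18.2 in GFPplus and 7.76, 7.80 and 6.82 in GFPminus. The GFPminus peaks were thus called by the authors with weaker evidence than the GFPplus peaks. Where the deposited fold gave a whole number of overlapping fragments at the summit, the median was 12 fragments in GFPminus replicate 1 (44 of the regions, exact Poisson 95% interval of a count of 12, 6.20 to 21.0). It was also 12 in GFPminus replicate 2 (44 regions) and 7 in GFPminus replicate 3 (29 regions, 2.81 to 14.4). In GFPplus replicates 1 to 3 it was 18 (8 regions, 10.7 to 28.4), 17 (12 regions, 9.90 to 27.2) and 12 (5 regions, 6.20 to 21.0). The median of GFPplus replicate 3 (5 regions) thus equalled that of GFPminus replicates 1 and 2 (44 regions each). The regions with a whole number differed between libraries, so these are not medians of all 165 regions. Fragment numbers are not scaled to the library's background, which was lowest in replicate 3 of both fractions. These intervals cover counting error only, and they are wide for single GFPminus levels. The range among the 3 percentiles of a region had a median of 7.15 points in GFPplus and 27.9 points in GFPminus, against 15.8 and 23.1 points over all shared regions. In the opposite set it was 23.5 points in GFPplus and 10.4 points in GFPminus. Each set thus had the narrower range in the fraction where the rule placed it higher. The rule holds the 3 percentiles of that fraction between the other fraction's highest percentile and the top of the list. The narrower range therefore follows in part from the choice and is no measure of how well the libraries agree.

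Peaks of the set were also broader in GFPplus. The highest peak of a region had a median width of 479, 384 and 360 bp in GFPplus replicates 1 to 3 and of 283, 267 and 217 bp in GFPminus replicates 1 to 3. Over all shared regions these medians were 424, 367 and 306 bp in GFPplus and 421, 412 and 328 bp in GFPminus. Width and fold come from the same peak calls, so this is part of the choice and no separate support for it.

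The gap between the fractions ran from 10.01 to 40.1 points with a median of 16.0. It lay between 10 and 15 points for 75 regions, between 15 and 20 for 42, between 20 and 30 for 36 and at 30 or more for 12. The opposite set reached a gap of 64.8 points, with a median of 17.6. A margin in percentiles leaves little room at the top of a list: 53.6% of all shared regions had a GFPminus percentile above 90 in at least 1 library and could not become members whatever their GFPplus level. The opposite set faced the same kind of ceiling, with 40.8% of shared regions above 90 in at least 1 GFPplus library. The highest GFPminus percentile of a member was 85.6. GFPminus replicates 2 and 1 set that highest value in 77 and 71 of the regions and GFPminus replicate 3 in 17, while the lowest GFPplus value came from GFPplus replicate 2 in 89, replicate 3 in 45 and replicate 1 in 31.

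The widest gap was found on chromosome 8 at 18516994 to 18517498 (Zv9, 505 bp). Its fold enrichment was 13.2, 7.50 and 9.70 in GFPplus replicates 1 to 3 and 4.23, 4.16 and 4.31 in GFPminus replicates 1 to 3. The GFPplus libraries were all well above the GFPminus libraries, which lay close together (4.23 ± 0.07, SD, n = 3). Its percentiles were 97.6, 87.3 and 90.2 in GFPplus against 47.2, 46.8 and 19.3 in GFPminus, so a site among the strong peaks of the GFPplus lists was a middling to weak peak in the GFPminus lists.

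The next region, on chromosome 2 at 59915343 to 59915892, was stronger still in GFPplus. Its fold was 17.5, 10.7 and 13.5 in GFPplus and 4.61, 4.21 and 5.62 in GFPminus, at percentiles of at least 96.3 in each GFPplus list and at most 58.2 in each GFPminus list. The spread between GFPplus libraries was wide (13.9 ± 3.40, SD, n = 3), and the lowest of them was still well above the highest GFPminus value. A region on chromosome 17 at 14939872 to 14940552 had a similar profile, with folds of 12.5, 8.86 and 14.2 in GFPplus and of 4.31, 4.57 and 4.43 in GFPminus. It was made of 10 peaks over the 6 lists, and the summits of its highest peaks were spread over 391 bp.

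The remaining regions of the 8 with the widest gap were of moderate height in GFPplus. On chromosome 21 at 36643664 to 36644409 the folds were 7.55, 6.23 and 7.79 in GFPplus and 3.98, 3.71 and 4.69 in GFPminus. On chromosome 18 at 2036431 to 2037050 they were 8.11, 7.56 and 11.3 in GFPplus and 4.31, 4.24 and 5.36 in GFPminus. Neither region reached the upper 10% of the list in all 3 GFPplus libraries, and their place in the set rests as much on low GFPminus ranks. Chromosome 6 held another pair. At 52689427 to 52689960 the folds were 9.47, 7.02 and 7.14 in GFPplus and 3.997, 3.72 and 4.55 in GFPminus, with all summits within 61 bp. At 56190099 to 56190631 they were 9.59, 6.56 and 8.06 in GFPplus and 3.83, 4.02 and 5.34 in GFPminus. In both of these GFPplus replicate 1 was the highest library. The last, on chromosome 12 at 37040716 to 37041104, had folds of 7.18, 6.18 and 5.89 in GFPplus and of 3.71, 3.40 and 4.59 in GFPminus.

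**Figure D2:**
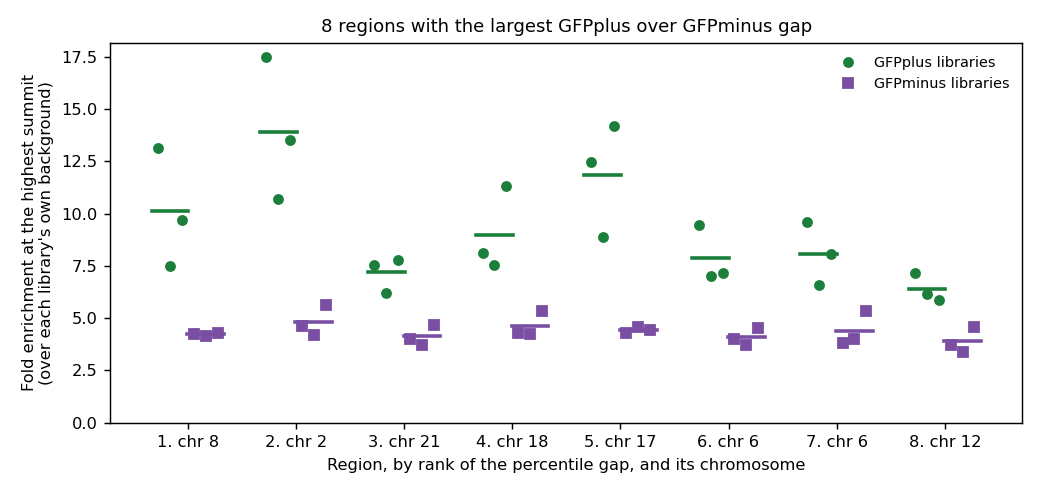
Fold enrichment at the highest summit (y axis, linear) in each library for the 8 regions with the widest gap, ordered by rank (x axis). Circles are the GFPplus replicates 1 to 3 from left to right, squares the GFPminus replicates 1 to 3, and bars the mean of each fraction. In all 8 the GFPplus libraries lie above the GFPminus libraries, and the SD among libraries is larger in GFPplus, at most 3.40 against at most 0.82 in GFPminus.

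Some members were among the strongest sites of the endothelial lists. In 43 of the 165 regions (26.1%) every GFPplus percentile was 90 or above, a share not computed over all shared regions. In GFPplus replicates 1 to 3 taken singly, 43.6%, 31.5% and 38.8% of the members were at or above 90. Over all shared regions it was 29.6%, 31.8% and 21.7%, so the members did not exceed that share in GFPplus replicate 2. Ordered by the lowest GFPplus fold, the first was on chromosome 13 at 239461 to 240065, with folds of 17.1, 12.4 and 18.4 in GFPplus and of 6.38, 5.91 and 6.52 in GFPminus. Its 6 summits lay within 27 bp, so the fractions had their highest point at nearly the same place. The second, on chromosome 17 at 405147 to 405987, had folds of 14.8, 12.2 and 16.0 in GFPplus and of 6.37, 6.95 and 7.20 in GFPminus. The fifth, on chromosome 25 at 5476973 to 5477512, had folds of 14.8, 11.2 and 14.5 in GFPplus and of 5.76, 6.79 and 6.64 in GFPminus, with all summits within 39 bp. These 3 regions were clear peaks in GFPminus as well, with a −log10 p of at least 11.5 in every GFPminus library.

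The other strong members had lower mean GFPminus folds, 4.86, 5.04 and 4.75 against 6.27, 6.84 and 6.40. In GFPminus replicate 1 alone, the chromosome 14 region (6.11) was above the chromosome 25 region (5.76). On chromosome 14 at 25803619 to 25804336 the GFPplus folds were 12.4, 11.5 and 12.9, and the GFPminus folds of 6.11, 4.59 and 3.88 were spread from the 79.8 to the 9.26 percentile. On chromosome 8 at 55212698 to 55213093 the folds were 13.6, 11.2 and 11.6 in GFPplus and 5.39, 5.30 and 4.43 in GFPminus. On chromosome 22 at 32639246 to 32640070 they were 13.0, 11.02 and 11.1 in GFPplus and 4.31, 4.94 and 4.99 in GFPminus. The GFPminus summits of that region corresponded to 11, 13 and 8 overlapping fragments, and its GFPminus percentiles were at most 67.3.

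At the weak end, 42 regions (25.5%) had all GFPminus percentiles under 50, and 41 regions had at least 1 GFPplus percentile under 70. Neither count was taken over all shared regions. In GFPminus replicates 1 to 3 taken singly, 38.2%, 38.2% and 71.5% of the members were under 50. Over all shared regions it was 4.89%, 4.93% and 33.1%. No region was both at or above 90 in every GFPplus list and under 50 in every GFPminus list. The member with the lowest GFPplus percentile lay on the unplaced scaffold Zv9_NA92 at 39750 to 40313. Its folds were 6.52, 4.03 and 5.22 in GFPplus and 3.15, 3.51 and 3.25 in GFPminus, at percentiles of 74.0, 31.4 and 48.5 and of 6.93, 19.4 and 0.85, so it was no strong peak in either fraction. Just inside the 10-point margin were chromosome 6 at 6695784 to 6696244 (gap 10.01, folds 4.97, 4.94 and 6.18 in GFPplus and 3.87, 3.96 and 4.96 in GFPminus), chromosome 23 at 40431160 to 40431856 and chromosome 9 at 978644 to 979055. Just outside were chromosome 1 at 914006 to 914528 (folds 7.11, 6.30 and 8.04 in GFPplus and 5.06, 4.97 and 5.84 in GFPminus), chromosome 20 at 12175889 to 12176279 and chromosome 6 at 16141556 to 16142115. The last of these had GFPplus folds of 16.0, 9.63 and 15.04 against 6.83, 5.63 and 3.69 in GFPminus. Its GFPminus percentiles ran from 4.98 to 84.5, so the highest GFPminus library kept it out.

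Whether the order of the fractions carries over to libraries that played no part in the choice was examined by holding out 1 GFPplus and 1 GFPminus library, choosing regions by the same rule on the other 4, and reading the values of the held-out libraries. With GFPplus replicate 1 held out together with GFPminus replicate 1, 2 or 3, the share of chosen regions that ranked higher in the held-out GFPplus library was 72.1%, 68.4% and 93.2%, against 28.9%, 28.9% and 74.9% of all shared regions. With GFPplus replicate 2 held out it was 62.4%, 60.7% and 88.8%, against 30.3%, 29.8% and 76.3%. With GFPplus replicate 3 held out it was 49.9% (338 of 677 regions), 53.2% and 90.1% (273 of 303), against 19.8%, 20.1% and 61.7%. The background thus moved with the library, and was highest where the short list of GFPminus replicate 3 was held out. With percentiles taken among shared regions alone the background was nearly even. In the same order of GFPminus libraries, the share was then 76.4%, 77.8% and 66.1% for GFPplus replicate 1, against 51.3%, 51% and 49.5% of all shared regions. It was 72.5%, 73.1% and 59.2% for GFPplus replicate 2, against 52%, 51.8% and 49.9%. For GFPplus replicate 3 it was 74.6%, 73.4% and 68.5%, against 52.3%, 52.1% and 50.1%. The chosen regions were above the background in 9 of 9 held-out pairs under either ranking, by the least with GFPplus replicate 2 and GFPminus replicate 3 in the ranking among shared regions. A region that passes on all 6 libraries also passes on any 4. Each chosen set (234 to 696 regions by list percentile) therefore held all 165 regions, whose held-out order the rule had already fixed. Likewise, the sets chosen among shared regions (1516 to 2289) held all 695 that pass there. The shares describe these wider sets and are no separate support for the 165 regions. The held-out lists still decided which regions counted as shared, and the 9 pairs reuse the same 6 libraries, so these shares are a description without a p.

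**Figure D3:**
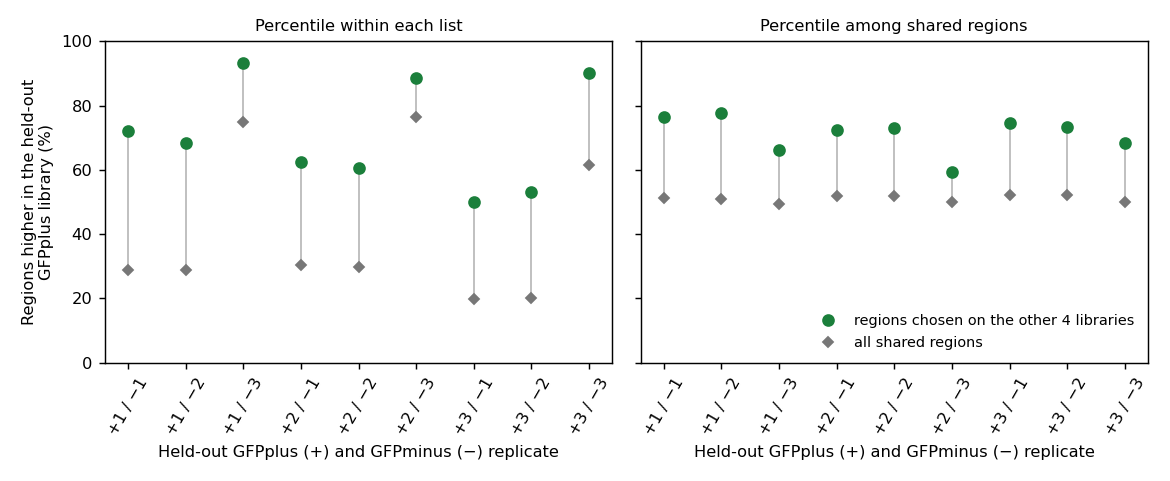
Share of regions (y axis, percent) that ranked higher in the held-out GFPplus library than in the held-out GFPminus library, for each of the 9 held-out pairs (x axis). Circles are regions chosen by the same rule on the other 4 libraries and diamonds all 17714 shared regions. On the left, each chosen set includes the 165 regions of the full rule. Circles lie above diamonds in all pairs, and with percentiles among shared regions (right) the diamonds lie between 49.5% and 52.3%.

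In shape the 165 regions were close to other shared regions. Their median width was 545 bp, against 564 bp in the opposite set and 572 bp over all shared regions. Exactly 1 peak per library made up 139 of them (84.2%), against 84.2% of the opposite set and 78.2% of all shared regions. The members' GFPplus lists were split into several peaks less often than those of shared regions at large. At least 1 GFPminus list had several peaks in 19 of the 165 regions (11.5%) and at least 1 GFPplus list in 10 (6.06%). Over all shared regions the shares were 13.0% for GFPminus and 15.9% for GFPplus lists, and in the opposite set they were 6.41% and 12.2%.

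The summits of the highest peaks were somewhat more scattered in the 165 regions than in shared regions at large. They spanned a median of 143 bp over the 6 libraries, against 162 bp in the opposite set and 113 bp over all shared regions, and all 6 lay within 100 bp in 46 regions (27.9%), against 21.6% and 42.2%. The median of the mean distance between summits was 59.0 bp for libraries of the same fraction and 61.1 bp for libraries of different fractions, and the median difference within a region was −2.22 bp (between minus within fractions). The same median difference was −3.56 bp in the opposite set and −2.44 bp over all shared regions. For members it was −8.92, −8.46 and −8.33 bp without GFPplus replicate 1, 2 and 3. It was 8.79, 4.79 and 7 bp without GFPminus replicate 1, 2 and 3. Its sign thus followed the fraction that lost a library. Leaving 1 out makes most of the same-fraction pairs come from the other fraction, so these values do not settle the sign. In 27 regions (16.4%) the GFPplus and GFPminus summits did not overlap in position, against 9.86% of all shared regions. In 12 (7.27%, against 2.96%) their mean positions were also at least 100 bp apart. In the opposite set the shares were 13.6% and 4.81%, also above those of all shared regions. The part of the low GFPminus signal in these values was not tested.

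A larger share of the 165 regions than of shared regions at large had a region open in GFPplus alone nearby, with no test of the difference. A region called in all 3 GFPplus and in no GFPminus list (2285 such regions) was within 10 kb of 15 of the 165 regions, which is 9.09% (exact binomial 95% interval 5.18 to 14.6). The share was 3.81% in the opposite set and 4.43% over all shared regions. Within 50 kb it was 29.1% (22.3 to 36.7), against 20.4% and 19.8%. Regions called in GFPminus alone (1594) were within 10 kb of 3.03% of the 165 regions, 6.21% of the opposite set and 2.72% of all shared regions, and within 50 kb of 8.48%, 23.2% and 13.2%. These intervals cover counting error only, and regions are not independent replicates. Both kinds of neighbour were called from the same 6 libraries as the choice itself. With lists of equal length, each cut to its best 33437 peaks, 307 of 12179 shared regions (2.52%) passed the rule, and 4.89% of the 307 had a GFPplus-only region within 10 kb, against 4.51% of all shared regions, so the excess was not seen there. Only 15 of the 165 regions were among those 307. In 146 of the 165 a GFPminus list no longer held a peak after the shortening: GFPminus replicates 1 and 2 kept a peak in 31 and 40 of the 165 regions, while GFPplus replicates 1 to 3 kept one in 163, 159 and 165 and GFPminus replicate 3 in 165. The equal-length set is therefore mostly made of other regions.

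**Figure D4:**
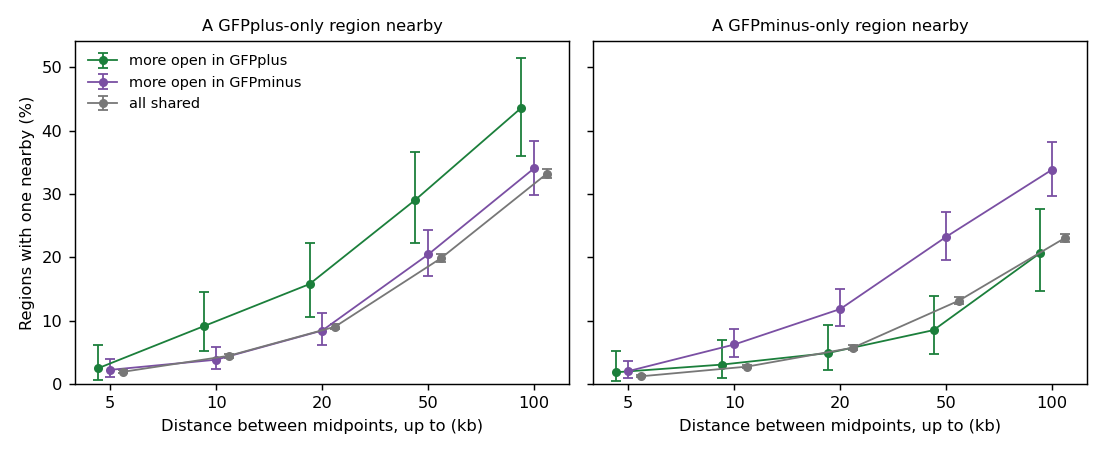
Share of regions (y axis, percent) with a region called in GFPplus alone (left) or GFPminus alone (right) within a given distance between midpoints (x axis, kb, not to scale). Bars are exact 95% binomial intervals. At 10 kb, 9.09% of the 165 regions more open in GFPplus have a GFPplus-only neighbour against 4.43% of all shared regions, and the opposite set has more GFPminus-only neighbours (6.21% against 2.72%).

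The 15 regions each had a single GFPplus-only neighbour within 10 kb, at a median distance of 6.58 kb. The closest was on chromosome 18, where the member at 46915626 to 46916023 had folds of 7.65, 6.44 and 9.01 in GFPplus and of 4.01, 4.92 and 3.92 in GFPminus. The GFPplus-only region at 46918355 to 46918669, 2.69 kb away, had folds of 6.87, 7.55 and 7.18, so both sites had about the same height in endothelial nuclei and differed in whether a GFPminus peak was called. The order of heights could differ between libraries. On chromosome 6, the GFPplus-only region at 40016427 to 40016793 had folds of 14.4, 6.43 and 7.78, and the member 6.45 kb away at 40009949 to 40010364 had folds of 5.94, 8.42 and 5.65 in GFPplus and of 3.23, 3.88 and 3.88 in GFPminus. The neighbour was the higher site in GFPplus replicates 1 and 3 and the lower one in replicate 2. On chromosome 11 it was the lower one in each library: the member at 45560615 to 45561109 had folds of 12.4, 10.4 and 11.1 in GFPplus and of 4.79, 3.92 and 4.63 in GFPminus, and the region at 45552856 to 45553187 had folds of 6.26, 4.63 and 4.53. These 3 were picked for their distance or height after the values were seen.

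Shared regions of neither set that lay near the 165 regions did not lean clearly to GFPplus. Of 54 such neighbours within 10 kb, 28 (51.9%) had a higher mean percentile in GFPplus, against 45.3% of all shared regions of neither set, and 136 of 259 (52.5%) did at 10 to 50 kb. Farther away, at 50 to 200 kb, it was 44.5%. Around the opposite set the shares were 36.8% within 10 kb and 37.8% at 10 to 50 kb. The lean around the 165 regions depended on the ranking: it was 71.9% within 10 kb by −log10 p (against 46.7%) but 39.4% with lists of equal length (against 51.3%), where the direction turned, and 51.0% with percentiles among shared regions (against 54.0%).

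The 165 regions were spread over all 25 chromosomes, with 3 on unplaced scaffolds, and seldom lay together. No member had another within 10 kb, and 6 (3.64%) had another within 50 kb, against 1.86% of all shared regions with a member that near. Members of the opposite set were within 50 kb of 6.06% of the 165 regions and of 6.17% of all shared regions. No window of 100 kb held more than 2. One window with 2, on chromosome 18 at 20700001 to 20800000, had weak members at 20715767 to 20716290 (folds 5.36, 5.36 and 5.497 in GFPplus and 4.08, 3.90 and 4.61 in GFPminus) and at 20750451 to 20750885 (5.78, 4.70 and 6.09, and 3.24, 4.04 and 3.25). The other was on chromosome 23 at 40400001 to 40500000, where both shared regions of the window were members. The one at 40431160 to 40431856 had folds of 7.09, 7.20 and 8.01 in GFPplus and 4.73, 4.998 and 4.73 in GFPminus. The one at 40446256 to 40446806 had folds of 6.93, 6.18 and 5.98 in GFPplus and 3.23, 3.18 and 4.99 in GFPminus. The closest pair of all lay across a window border on chromosome 18, 11.4 kb apart. Its members at 44591380 to 44592239 (7.62, 5.78 and 7.74 in GFPplus, 3.33, 4.23 and 5.57 in GFPminus) and at 44602941 to 44603431 (7.70, 6.04 and 7.87, and 4.16, 3.58 and 4.15) had nearly the same GFPplus folds in each library.

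Chromosome 18 had the largest share of members, with 14 of its 639 shared regions (2.19%, exact binomial 95% interval 1.20 to 3.65), against 0.931% over all shared regions. The opposite set took 2.35% of the same regions, against its 2.82% overall. The members of chromosome 18 ran from 2036431 to 48111065. Chromosome 18 also ranked first of 25 by −log10 p (2.19%), with percentiles among shared regions (6.26%) and with lists of equal length (4.31%), and it ranked second without GFPminus replicate 1 (3.22%) and eleventh when only peaks with a −log10 q of at least 5 were used (1.6%, against 1.502% overall). Chromosome 1 had the smallest share, 2 of 743 (0.269%, 0.033 to 0.969), and it did not keep that place under other settings. It ranked 14 of 25 at equal length, 8 with a gap above 0 (4.58%, against 4.26% overall) and 3 with a −log10 q of at least 5 (2.15%, against 1.502% overall), so that its share turned from below to above the overall share in the last 2 settings. No test between chromosomes was run, and the chromosomes were singled out after the values were seen.

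**Figure D5:**
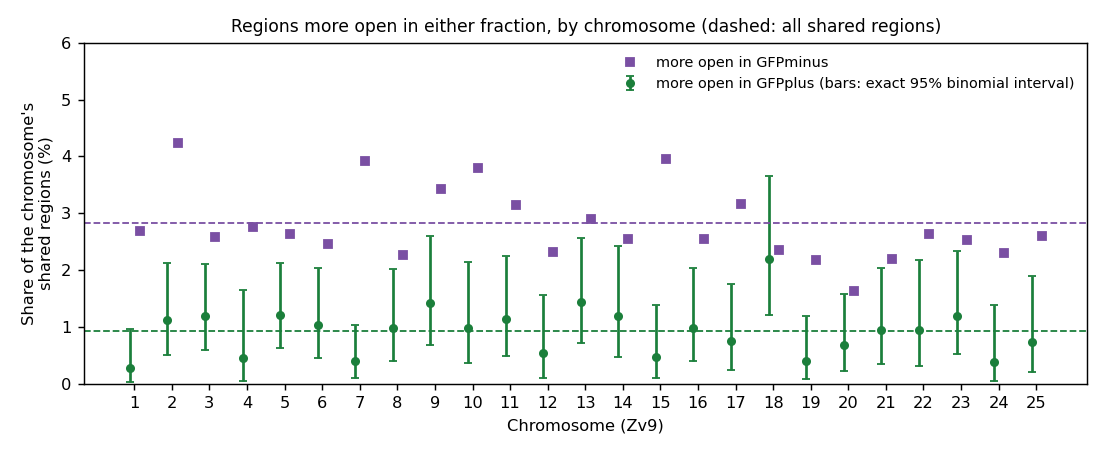
Share of each chromosome's shared regions (y axis, percent) that was more open in GFPplus (circles, with exact 95% binomial intervals) or in GFPminus (squares). Dashed lines mark the shares over all shared regions, 0.931% and 2.82%. Chromosome 18 has the highest circle (2.19%) and chromosome 1 the lowest (0.269%).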

How the data were processed

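ATAC-seq peak lists of 6 libraries (3 GFPplus, 3 GFPminus) were used as deposited. Tools named in the submitters' processing notes are MACS2, deepTools, Bowtie2 2.1.0 and cutadapt 1.3, with the build Zv9 (danRer7). Their settings and filters are not stated. Per the file headers the lists are in narrowPeak layout, 1 per library. The deposited fold enrichment is a ratio over the caller's background, and the deposited −log10 p and −log10 q are the caller's. The deposited score and the start, end and summit columns came from the authors as well, and the score was not used. Sequencing depth is not stated in these lists. Peaks overlapping by at least 1 bp were merged, and percentiles are average ranks (Python 3.11.15, pandas 2.3.3, SciPy 1.17.1). The background rate behind whole fragment numbers at summits was read from the steps of the deposited folds (within 0.0002). It was 1.60, 1.59 and 0.84 in GFPplus replicates 1 to 3 and 1.78, 1.83 and 0.80 in GFPminus replicates 1 to 3. Replicate 3 thus had the lowest rate in both fractions, and its part in the ranks was not tested. This rate does not hold for every peak. A whole number was reached by 3.03% to 7.27% of members in the GFPplus libraries and by 17.6% to 26.7% in the GFPminus libraries. No test across regions or between fractions was run, because the rule used all 6 libraries. A two-sided exact permutation test of 3 against 3 could in any case not give a p below 0.1. Nothing in the labels pairs libraries beyond their numbers. Distances are between region midpoints. Coordinates are 1-based. The members and comparisons were chosen with earlier results of these data known. Named are the 8 members with the widest gap, the 6 with the highest lowest GFPplus fold, 3 on either side of the margin, the fullest 100 kb windows and the closest pairs. The code was tested on simulated lists. Alternatives changed the score, the ranking, the margin, width limits, overlap, chromosomes, peak filter and libraries.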

Additional observations from a re-analysis of the deposited data

How the results depend on the processing

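The margin and the ranking set the size of the set. In place of 165 and 499 regions (GFPplus and GFPminus), the counts were 315 and 843 with a gap of at least 5 points, 48 and 198 with at least 20, 754 and 1747 with any gap above 0, 695 and 967 with percentiles among shared regions, 307 and 494 with lists of equal length, and 161 and 271 with a −log10 q of at least 5. Of the 165 regions, 135 passed by −log10 p (173 and 526 regions, 0.977% and 2.97%), 34 with the −log10 q filter and 15 at equal length. Only 9 (5.45%) passed in all 3 of the rankings among shared regions, by −log10 p and at equal length, and 16 (9.70%) in none. None of the 8 regions with the widest gap passed in all 3. The 16 included the named regions on chromosome 18 at 20715767, chromosome 6 at 6695784 and chromosome 9 at 978644. The causes were not tested, except at equal length, where lost GFPminus peaks remove regions by construction. The −log10 q filter removes peaks by construction as well, and 10718 shared regions remained with it. How many of the 165 were lost in that way was not counted. Width limits, a 50 bp overlap and numbered chromosomes gave 162 to 177 members (0.873% to 0.937%). Leaving out a library asks for less and gave 197 to 613 and 545 to 3008 regions; members numbered 197, 286 and 294 without GFPplus replicate 1, 2 and 3, and 414, 448 and 613 without GFPminus replicate 1, 2 and 3. Settings added after the data were seen gave 824 and 1167 by −log10 p among shared regions (4.65% and 6.59%). Among shared regions without GFPminus replicate 3, they gave 1816 and 1934 (7.74% and 8.25% of 23449). GFPminus regions were more numerous in each of these settings. The share of members with a GFPplus-only region within 10 kb was 6.52% to 10.8% without 1 library, against 4.30% to 4.87% of all shared regions. By −log10 p it was 12.1%, with percentiles among shared regions 6.76% and with a gap of at least 20 points 6.25% (3 of 48), each against 4.43%. At equal length it was 4.89% against 4.51%. Within 5 kb it was 2.42% against 1.89%, and within 50 kb 29.1% against 19.8%. The median GFPplus minus GFPminus difference of shared neighbours of neither set within 10 kb, 0.18 points, was −6.09 to 2.87 without 1 library, 6.58 by −log10 p and −2.34 at equal length. Over all shared regions of neither set the median was −0.76 points, and −5.67 to 0.92 without 1 library. By −log10 p it was −0.47 and at equal length 0.18. Both ranges had their lowest value without GFPminus replicate 3 and their highest without GFPminus replicate 1. The summit difference, −2.22 bp (−2.44 bp over all shared regions), ranged from −8.92 to 8.79 bp without 1 library, where fewer libraries are averaged. It was negative without any GFPplus library and positive without any GFPminus library. The held-out share, 68.4% at the median of 9 pairs, ranged from 49.9% to 93.2%. With the replicate block, which asks for 10 points within each same-numbered pair, 343 and 1432 regions passed (1.94% and 8.08%). Deviations of same-numbered libraries correlated at 0.075, 0.039 and 0.12 over shared regions, and those of differently numbered libraries at −0.105 to 0.046. GFPplus replicates 1 and 3 were closest to the GFPminus library of the same number. GFPplus replicate 2 was slightly closer to GFPminus replicate 1 (0.046) than to replicate 2. Whether same-numbered libraries share an isolation is not stated in the labels, and libraries were left unpaired. Low GFPminus counts limit the precision of single regions. Genes and motifs were not run.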
